A study of Mus musculus with 9 samples.

Results

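The enzymes that break down glucose, feed the pentose phosphate pathway and build or break down glycogen were examined in mouse astrocytes and SB28 glioblastoma (GBM) cells, and in SB28 cells with and without astrocyte mitochondria. The members were 31 genes listed by function, and each symbol matched 1 of the 49315 gene IDs in the count table by the GENCODE M21 annotation of GRCm38. They comprised 14 enzymes of glycolysis, 3 bifunctional kinase/phosphatases that set fructose-2,6-bisphosphate, 7 enzymes of the pentose phosphate pathway, 2 phosphoglucomutases and 5 enzymes of glycogen synthesis or breakdown.

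Glycolysis splits glucose into pyruvate, and its flux is governed mainly at hexokinase, phosphofructokinase and pyruvate kinase. The pentose phosphate pathway branches off at glucose-6-phosphate, where its oxidative arm makes NADPH and its non-oxidative arm exchanges sugars between ribose-5-phosphate and glycolysis. In the brain, glycogen is held mainly by astrocytes.

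All 9 libraries were bulk RNA-seq of cells sorted from 2-day co-cultures, 3 per group, in DMEM F12 with 20 ng/ml of EGF and FGF, 5% N2 and 2% FBS by the sample labels (the study's methods give less N2 and more FBS for its neural stem cell medium), and none had another treatment. The donor group was primary neonatal astrocytes from C57BL6 (mito::mKate2) mice, whose transgene carries a mitochondria-localized red fluorophore under the broadly active CAG promoter. The other groups were SB28 tumor cells, a GFP-expressing line of the C57BL6 strain, sorted as mKate2- (no detected astrocyte mitochondria) or mKate2+ (astrocyte mitochondria acquired). Both SB28 groups had shared a culture with astrocytes, SB28 cells grown alone were not analysed here, and the written sort gates place CellTrace Violet on the tumor cells whereas the study's methods stain the astrocytes, so groups were taken from the sample titles. Per the study's methods, the 3 groups were sorted from the same set of distinct co-cultures, so the 9 libraries are not 9 separate cultures, and the labels do not say which libraries share one. The fits treated the groups as unpaired, with a block on the replicate number as an alternative.

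The libraries held 24454561 to 39287841 counts. Levels are given as CPM, a gene's count as a fixed multiple of its share of the library's total, and differences as log2 fold changes from edgeR fits with TMM normalization, with adjusted p over all genes tested. Between genes, levels were compared only as CPM per kilobase of exonic length.

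The labelled cell types were checked first. Of 10 astrocyte markers, 9 were above 1 CPM on average in the astrocytes and 6 were at least 10 times their SB28 level, among them the glutamate transporter Slc1a3 at 173, 177 and 236 CPM in the astrocyte libraries and at most 2.38 CPM in any SB28 library. S100b averaged below 1 CPM in astrocytes (0.327, 0.367 and 2.16 CPM), and Gja1 was higher in SB28. Sox9, the most abundant per kilobase in astrocytes, averaged 42.4 CPM per kilobase there and 22.3 and 20.8 CPM per kilobase in mKate2- and mKate2+ cells. Of the oligodendrocyte-lineage markers, Olig1 (541, 241 and 304 CPM), Olig2 (268, 159 and 155 CPM), Cspg4 (26.9, 19.3 and 22.6 CPM) and Pdgfra (10.3, 23.3 and 23.7 CPM) were expressed in the astrocyte libraries, Sox10 was at or near 0, and Mbp and Mog averaged below 1 CPM. The 8 markers of this list summed to 847, 444 and 508 CPM in astrocytes and 17.1 to 27.0 CPM in SB28 libraries. Of 7 fibroblast and vascular markers, Acta2 and Col1a1 were the most abundant per kilobase in astrocytes (42.1 and 40.6 CPM per kilobase). Col1a1 was at 325, 324 and 151 CPM in astrocytes and 105 to 181 CPM in SB28, Acta2 was at 60.1, 86.2 and 131 CPM in astrocytes and 7.54 to 17.8 CPM in SB28, and Lum, Pecam1 and Cldn5 averaged below 1 CPM in astrocytes. The 7 summed to 448, 468 and 344 CPM in astrocytes and 169 to 247 CPM in SB28. The part of such cells in the differences from astrocytes was not tested. Of 7 microglial markers, 5 (Cx3cr1, Csf1r, Aif1, Itgam and Ptprc) averaged below 1 CPM in astrocytes, and P2ry12 was at 1.06, 2.54 and 0.484 CPM there and at most 0.0555 CPM in SB28 libraries. Tmem119, the most abundant, was higher in SB28 than in astrocyte libraries (39.1, 24.8 and 30.5 CPM in astrocytes and 47.3 to 61.1 CPM in SB28), and the 7 together summed to 40.7, 28.9 and 31.3 CPM in astrocytes and 47.6 to 61.3 CPM in SB28.

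Astrocyte replicate 3 stood apart, with Aqp4 at 59.7 CPM against 5.64 and 6.82 CPM, and with Foxj1, an ependymal marker, at 75.9 CPM against 8.91 and 6.73 CPM. Of the other ependymal markers, Rarres2 was lowest there (0.768 against 2.41 and 1.96 CPM), as was Tmem212 (0 against 0.245 and 0.122 CPM). Ccdc153 was at 0.655 CPM there and at 0 in the other astrocyte libraries. Astrocyte replicate 3 had the lowest level of the 3 astrocyte libraries in 10 of the 14 glycolytic enzymes (71.4%), and in 34.0% of all genes tested. Among SB28 libraries, mKate2+ replicate 2 stood apart, with a TMM factor of 0.928 where the other 5 lay between 1.008 and 1.029. Calls of the 31 genes that changed without either library are given with and without it.

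The summed level of the 31 genes came to 17523 ± 2705 CPM for the astrocytes (mean ± SD, n = 3), 18503 ± 2203 CPM for mKate2- SB28 cells and 19515 ± 2499 CPM for mKate2+ SB28 cells, differences within the spread of the replicates. The 14 glycolytic enzymes made up most of it, at 15489 ± 2519, 16604 ± 2110 and 17580 ± 2431 CPM. Glycogen enzymes summed to 487 ± 30.4, 399 ± 42.0 and 375 ± 5.45 CPM. In bulk samples, fewer cells of a type and less RNA per cell cannot be told apart.

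Relative to astrocytes, SB28 cells had much lower RNA for neuron-type enolase (Eno2), the activating kinase/phosphatase Pfkfb3 and liver-type glycogen phosphorylase (Pygl), and higher RNA for ribose-5-phosphate isomerase (Rpia). With an adjusted p under 0.05 and an absolute log2 fold change above 1, 1 of the 31 genes was higher and 3 were lower in mKate2- SB28 cells, where 11.5% of all genes tested were higher and 22.4% were lower. In mKate2+ SB28 cells 2 were higher, Rpia and phosphogluconate dehydrogenase (Pgd), and the same 3 were lower, against 12.2% and 22.8% of all genes tested. Among the 3 lower genes, Pygl passed the filter on low values only through the astrocyte libraries, so its call is not used as support. On adjusted p alone, 8 were higher and 10 lower in mKate2- cells (29.3% and 33.8% of all genes, 63.1% in all), and 8 were higher and 8 lower in mKate2+ cells (28.0% and 32.1%, 60.1% in all). The median log2 fold change over the 31 genes was -0.02 and 0.07, beside -0.04 and -0.02 over all genes tested. Both comparisons use the same 3 astrocyte libraries and are not independent of each other.

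**Figure D1:**
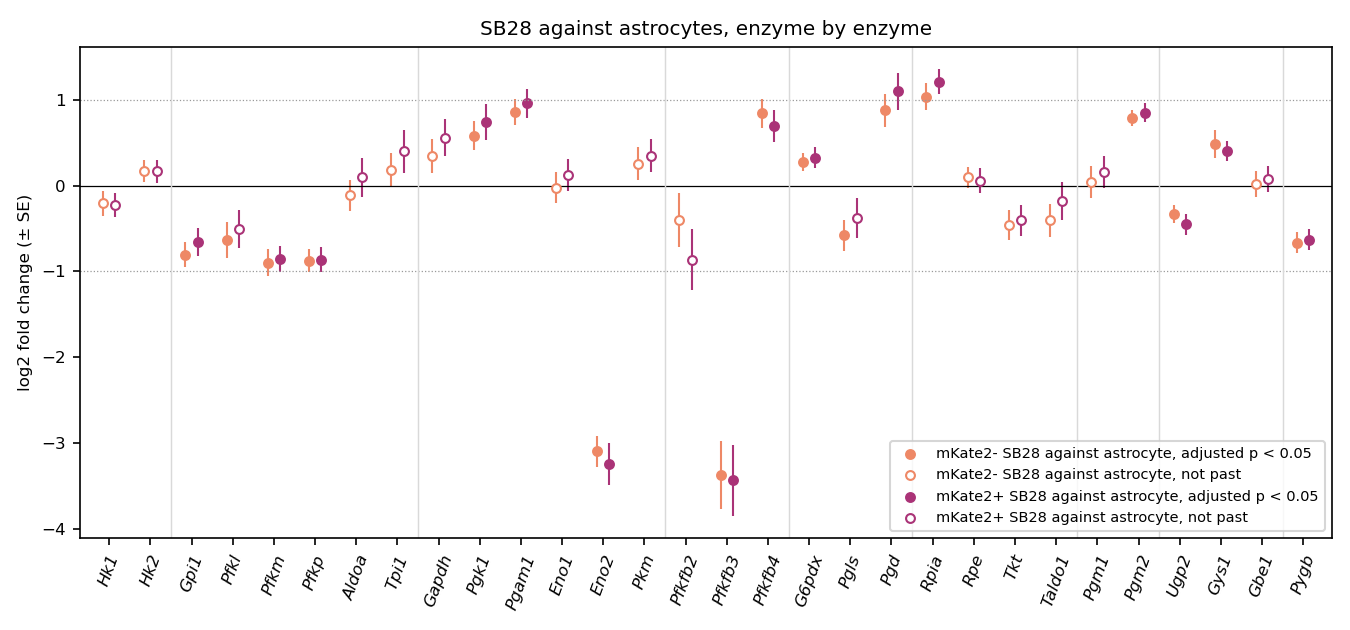
Log2 fold change (± SE) of 30 of the 31 enzymes in mKate2- and mKate2+ SB28 cells against astrocytes, ordered by pathway role; filled points have an adjusted p under 0.05, dotted lines mark a log2 fold change of 1 in either direction, and Pygl is left out because it is near 0 in SB28 cells. Eno2 and Pfkfb3 lie near -3 while all other points lie between -1 and 1.3.

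Eno2 (ENSMUSG00000004267, chromosome 6 from 124760053 to 124769673 on the minus strand), which encodes gamma enolase and is best known from neurons, was at 72.9, 56.2 and 58.5 CPM in the astrocyte libraries, at 7.91, 7.80 and 6.10 CPM in the mKate2- libraries and at 8.46, 5.65 and 4.80 CPM in the mKate2+ libraries. Every SB28 library was below every astrocyte library, with a wide gap. The difference was 8.53-fold in mKate2- cells (log2 fold change -3.09 ± 0.18 SE, adjusted p = 1.21e-05) and 9.44-fold in mKate2+ cells (-3.24 ± 0.25 SE, adjusted p = 4.42e-05). Neuron markers differed among themselves in the same libraries. Stmn2 was at 11.4, 43.4 and 38.5 CPM in astrocytes and at most 1.47 CPM in SB28 cells, Tubb3 was higher in SB28 cells, Rbfox3 was at 0 in all 9 libraries and Snap25 did not exceed 0.484 CPM. The 6 neuron markers summed to 27.0, 55.4 and 52.7 CPM in the astrocytes and to between 22.3 and 30.1 CPM in SB28 libraries, and their part in the Eno2 difference was not tested.

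Pfkfb3 (ENSMUSG00000026773, chromosome 2 from 11471433 to 11554077 on the minus strand) makes fructose-2,6-bisphosphate, the strongest activator of phosphofructokinase. It was at 26.9, 38.1 and 79.5 CPM in astrocytes, 4.34, 3.98 and 5.46 CPM in mKate2- and 3.80, 3.67 and 5.24 CPM in mKate2+ SB28 libraries. The groups did not overlap, but the astrocytes spread widely, with replicate 3 the highest. The log2 fold change was -3.37 ± 0.40 SE in mKate2- cells (adjusted p = 0.000238) and -3.43 ± 0.41 SE in mKate2+ cells (adjusted p = 0.000329). Without astrocyte replicate 3 the values were -2.82 and -2.89.

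Pygl (ENSMUSG00000021069, chromosome 12 from 70190811 to 70231488 on the minus strand) releases glucose-1-phosphate from glycogen. Its counts were 154, 109 and 242 in the astrocyte libraries, 5, 3 and 1 in mKate2- and 0, 2 and 0 in mKate2+ libraries, so it was close to absent at this depth in SB28 cells. Summed counts per total counts were 56.5-fold lower in mKate2- cells (95% exact interval, from the Clopper-Pearson method, 29.5 to 124, counting error only) and 299.6-fold lower in mKate2+ cells (82.5 to 2481), the latter resting on 2 counts. Pygl passed the filter on low values only through the astrocyte libraries, where it was high, so its call is not used as support. Without it, 2 genes were lower past both thresholds in each SB28 group. Over the whole table, 1529 of 2994 lower genes in mKate2- and 1562 of 3041 in mKate2+ cells passed in the same way. Setting these aside leaves 1465 and 1479, so the shares of 22.4% and 22.8% are not matched to the 2 genes.

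Rpia (ENSMUSG00000053604, chromosome 6 from 70765720 to 70792232 on the minus strand) interconverts ribulose- and ribose-5-phosphate, the sugar of nucleotides. It was at 10.3, 9.75 and 11.4 CPM in astrocytes, 20.8, 18.8 and 24.1 CPM in mKate2- and 23.5, 22.7 and 22.6 CPM in mKate2+ SB28 libraries. All 6 SB28 libraries were above all 3 astrocyte libraries. It rose 2.05-fold in mKate2- cells (log2 fold change 1.04 ± 0.15 SE, adjusted p = 0.000692) and 2.31-fold in mKate2+ cells (1.21 ± 0.14 SE, adjusted p = 0.000320). In mKate2- cells 4 alternative settings or left-out libraries put it below a log2 fold change of 1, at 0.95 to 0.96, with adjusted p at most 0.00517 under any alternative.

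Pgd (ENSMUSG00000028961, chromosome 4 from 149149991 to 149166771 on the minus strand) makes NADPH in the last oxidative step. Its levels were 229, 205 and 139 CPM in astrocytes, 372, 346 and 323 CPM in mKate2- and 396, 425 and 341 CPM in mKate2+ SB28 libraries. The groups were again separate, and astrocyte replicate 3 was the lowest. The log2 fold change was 0.87 ± 0.19 SE in mKate2- cells (adjusted p = 0.00516) and 1.10 ± 0.21 SE in mKate2+ cells (adjusted p = 0.00324). The latter was 0.89 without astrocyte replicate 3 and 0.99 without mKate2+ replicate 2, below the fold threshold.

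**Figure D2:**
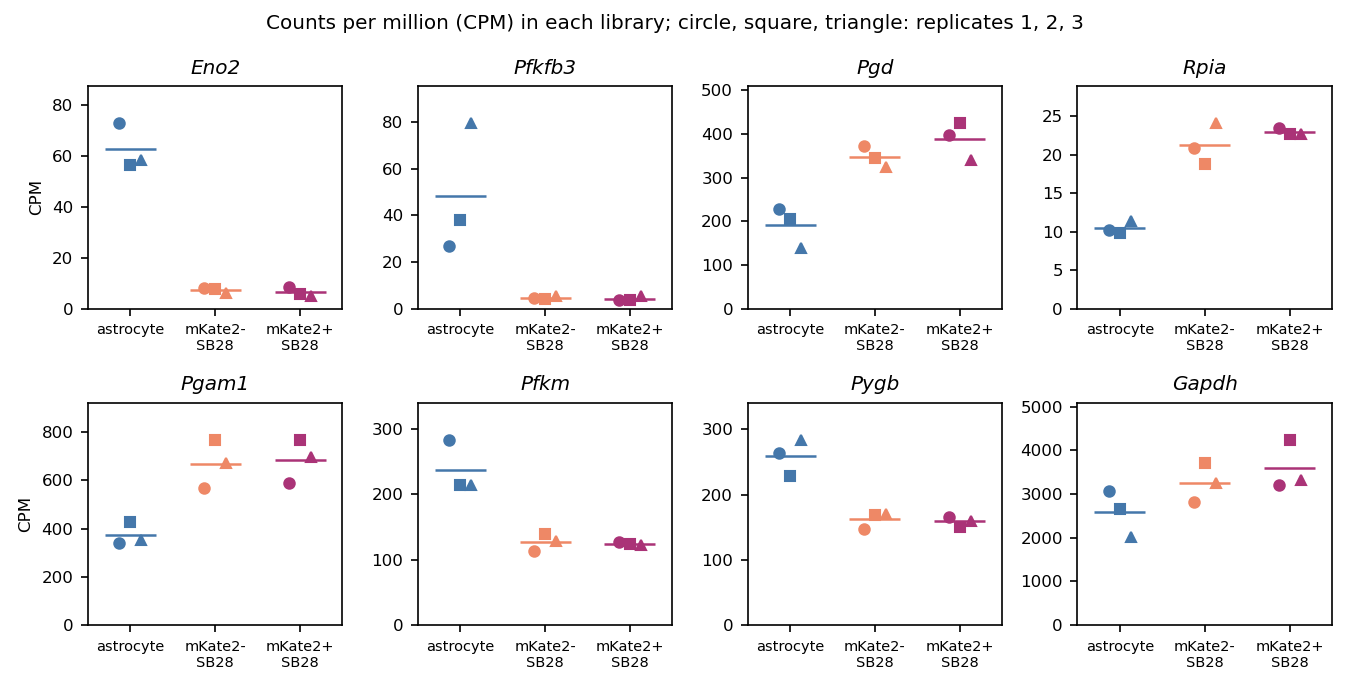
CPM of 8 of the enzymes in each of the 9 libraries, with the mean of each group as a line and an axis from 0; the symbols mark replicates 1, 2 and 3. For Eno2, Pfkfb3, Pfkm and Pygb all astrocyte points lie above all SB28 points, for Pgd, Rpia and Pgam1 below them, and for Gapdh 1 astrocyte point lies within the mKate2- range.

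The promoters of these 5 genes are shown because they are the 5 that passed both thresholds in at least 1 comparison with astrocytes. Each is the 250 bases before the RefSeq start (GRCm38.p6, all 5 on the minus strand and read 5′ to 3′ in the direction of the gene; for Pfkfb3 and Pgd, which have 2 starts each, the one nearest the 5′ end of the gene). Capitals mark ACGTG or its reverse complement CACGT, a form of the core that hypoxia-inducible factors bind. ACGTG also lies within the Myc motif CACGTG. Other forms of the hypoxia core, such as GCGTG, were not searched. The RefSeq starts of Pfkfb3, Pygl, Pgd and Rpia lie downstream of the GENCODE 5′ end of the gene. The windows are chr6:124769674-124769923 for Eno2, chr2:11553930-11554179 for Pfkfb3, chr12:70227684-70227933 for Pygl, chr4:149166706-149166955 for Pgd and chr6:70792176-70792425 for Rpia.
Eno2: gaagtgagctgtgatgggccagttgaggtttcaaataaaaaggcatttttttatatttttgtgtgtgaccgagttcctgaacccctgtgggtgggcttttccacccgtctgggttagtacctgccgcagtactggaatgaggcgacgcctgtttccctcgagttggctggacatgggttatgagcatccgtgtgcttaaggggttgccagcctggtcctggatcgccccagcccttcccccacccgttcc
Pfkfb3: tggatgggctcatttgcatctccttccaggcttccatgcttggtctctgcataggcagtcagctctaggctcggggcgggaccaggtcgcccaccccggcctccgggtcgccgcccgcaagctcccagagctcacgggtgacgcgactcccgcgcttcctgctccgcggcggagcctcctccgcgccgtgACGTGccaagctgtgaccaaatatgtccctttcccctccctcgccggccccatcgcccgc
Pygl: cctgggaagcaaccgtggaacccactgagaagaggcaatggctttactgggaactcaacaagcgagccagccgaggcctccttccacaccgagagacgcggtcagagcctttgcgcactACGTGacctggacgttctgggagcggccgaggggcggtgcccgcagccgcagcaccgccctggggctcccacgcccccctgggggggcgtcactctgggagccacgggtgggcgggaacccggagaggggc
Pgd: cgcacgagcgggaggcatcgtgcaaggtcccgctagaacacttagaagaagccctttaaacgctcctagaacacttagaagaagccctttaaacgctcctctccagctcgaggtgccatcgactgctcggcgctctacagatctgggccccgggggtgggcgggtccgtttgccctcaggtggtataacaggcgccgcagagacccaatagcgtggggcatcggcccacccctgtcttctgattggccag
Rpia: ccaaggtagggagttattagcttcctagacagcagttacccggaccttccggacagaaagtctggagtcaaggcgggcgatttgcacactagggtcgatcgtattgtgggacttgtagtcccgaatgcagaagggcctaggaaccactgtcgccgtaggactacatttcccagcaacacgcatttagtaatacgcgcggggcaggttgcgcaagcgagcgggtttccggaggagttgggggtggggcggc
Pfkfb3 and Pygl each held 1 ACGTG match, with its first base 60 and 131 bases before the start, and the windows of Eno2, Pgd and Rpia held none. Over all 31 genes, 10 held an ACGTG match (32.3%; Hk2, Pfkm, Pgk1, Pgam1, Pfkfb3, Pgm1, Pgm2, Ugp2, Pygb and Pygl), where 16.6% of 32817 RefSeq promoter windows of this length did. The 31 genes had 1 window each, while the 32817 windows include more than 1 for some genes, so the shares are not matched. Only Pfkm held CACGTG, and 6.02% of all windows did. Genes with a match were found among those higher (Pgk1, Pgam1, Pgm2), lower (Pfkm, Pfkfb3, Ugp2, Pygb, Pygl) and not past the test (Hk2, Pgm1). A match is a string of letters and not a measured binding site.

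In upper glycolysis, 4 of 6 enzymes after hexokinase were lower in mKate2- cells and 3 of 6 in mKate2+ cells at an adjusted p under 0.05, and none was higher. By this rule 33.8% and 32.1% of all genes tested were lower and 29.3% and 28.0% higher, which is the background for the counts by role that follow. The hexokinases, which trap glucose in the cell, did not pass the test in either group. Hk1 was at 336, 269 and 261 CPM in astrocytes, 221, 272 and 252 CPM in mKate2- and 247, 229 and 229 CPM in mKate2+ libraries. The mKate2- range overlapped that of the astrocytes, and the mKate2+ libraries were all below it. Hk2, the form often raised in tumors, was at 74.2, 103 and 89.4 CPM, 96.9, 105 and 94.2 CPM and 98.4, 88.4 and 97.4 CPM in the same order, a log2 fold change of 0.17 ± 0.13 SE and 0.17 ± 0.14 SE.

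Glucose-6-phosphate isomerase (Gpi1), the next step, had means of 1061 ± 58.2 CPM (SD, n = 3) in astrocytes and 601 ± 92.8 and 637 ± 90.2 CPM in mKate2- and mKate2+ cells, and fell by 1.75-fold and 1.58-fold (adjusted p = 0.00198 and 0.00972). Phosphofructokinase, the committing step, has 3 subunit genes, of which Pfkm and Pfkp were lower in both SB28 groups and Pfkl did not pass in mKate2+ cells. Pfkm was at 283, 215 and 214 CPM in astrocytes, 114, 138 and 128 CPM in mKate2- and 127, 124 and 123 CPM in mKate2+ libraries. Its log2 fold change was -0.90 ± 0.16 SE (adjusted p = 0.00161) and -0.86 ± 0.15 SE (adjusted p = 0.00202), with no overlap between astrocytes and SB28 cells.

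Pfkp was at 232, 226 and 232 CPM, 131, 140.1 and 102 CPM and 135, 126 and 99.0 CPM in astrocyte, mKate2- and mKate2+ libraries. The SB28 libraries were all lower (log2 fold change -0.87 and -0.86, adjusted p = 0.000895 and 0.00173), although Pfkp shares 748 exonic bases with Pitrm1 on the opposite strand and the strand setting of the counting is not given in the sources used here. Pfkl was at 589, 474 and 363 CPM, 257, 352 and 306 CPM and 285, 369 and 297 CPM. Astrocyte replicate 3 overlapped mKate2+ replicate 2, and the gene passed the test in mKate2- cells (-0.63 ± 0.21 SE, adjusted p = 0.0292) but not in mKate2+ cells (-0.51 ± 0.22 SE, adjusted p = 0.0769). Neither side was firm. The mKate2- call was lost in 4 of the 6 fits that left out 1 library, up to an adjusted p of 0.1095. In mKate2+ cells Pfkl passed in 6 of 15 alternative fits, among them those without astrocyte replicate 3 (-0.69, adjusted p = 0.0171) and without mKate2+ replicate 2 (-0.67, adjusted p = 0.0483).

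Aldolase A (Aldoa) and triosephosphate isomerase (Tpi1), which complete upper glycolysis, did not pass. Aldoa had means of 1799 ± 324, 1652 ± 199.8 and 1816 ± 377 CPM (SD, n = 3) in astrocytes, mKate2- and mKate2+ cells. Tpi1 had means of 1039.9 ± 198, 1172 ± 186 and 1295 ± 346 CPM. In both genes the spread within groups was as large as the difference between them.

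In lower glycolysis, where ATP is made, 2 of 6 enzymes were higher and 1 (Eno2) lower in each SB28 group. Phosphoglycerate mutase 1 (Pgam1) had means of 374 ± 48.3 CPM in astrocytes and 669 ± 99.7 and 685 ± 90.4 CPM (SD, n = 3) in mKate2- and mKate2+ cells, and rose 1.81-fold and 1.94-fold (adjusted p = 0.00162 and 0.00193). Phosphoglycerate kinase 1 (Pgk1), the first ATP-making step, went from 1008 ± 158 CPM to 1492 ± 233 and 1587 ± 334 CPM, 1.49-fold and 1.67-fold (adjusted p = 0.0190 and 0.0187). Without mKate2- replicate 2 the adjusted p of Pgk1 in mKate2- cells was 0.0748.

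Gapdh, which oxidizes glyceraldehyde-3-phosphate and often serves as a reference gene, was at 3059.5, 2658 and 2019 CPM in astrocytes, 2821, 3716 and 3242 CPM in mKate2- and 3212, 4246 and 3313 CPM in mKate2+ libraries. Astrocyte replicate 1 reached the mKate2- range, no astrocyte library reached the mKate2+ range, and the log2 fold change was 0.35 ± 0.20 SE (adjusted p = 0.159) and 0.56 ± 0.22 SE (adjusted p = 0.0577). The 47 other genes with near-identical stretches to Gapdh together held counts equal to 0.417% of its own. Pyruvate kinase (Pkm), the last step, was at 4169.6, 3836 and 2855 CPM, 3843, 4815 and 4198 CPM and 4185, 4816 and 4109.8 CPM, which overlapped, with log2 fold changes of 0.25 ± 0.19 SE and 0.35 ± 0.19 SE and adjusted p of 0.269 and 0.154. The counts are per gene, so its splice forms M1 and M2 were not separated. Alpha enolase (Eno1) had means of 2626 ± 471, 2562 ± 299 and 2702 ± 243 CPM, and its pair of near-identical copies, Eno1b and Gm4735, held counts equal to 4.84% of it.

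Of the enzymes that make or remove fructose-2,6-bisphosphate, Pfkfb4 rose where Pfkfb3 fell. Pfkfb4 was at 7.20, 6.45 and 8.23 CPM in astrocytes, 13.7, 12.7 and 12.4 CPM in mKate2- and 12.5, 10.1 and 11.1 CPM in mKate2+ libraries. All SB28 libraries were higher (0.84 ± 0.17 SE, adjusted p = 0.00332, and 0.70 ± 0.19 SE, adjusted p = 0.0141). In mKate2+ cells the adjusted p was 0.0525 without astrocyte replicate 2 and 0.0661 without mKate2+ replicate 1. Pfkfb2 was at 4.70, 11.3 and 10.6 CPM, 7.14, 6.60 and 6.20 CPM and 4.69, 3.61 and 5.62 CPM. The astrocyte and SB28 ranges overlapped, and it did not pass in either group (adjusted p = 0.302 and 0.0657). Without astrocyte replicate 1 it was lower past the test in both groups (-0.70, adjusted p = 0.0110, and -1.17, adjusted p = 0.00631).

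In the pentose phosphate pathway, 3 of 7 enzymes were higher in each SB28 group at an adjusted p under 0.05: Pgd, Rpia and glucose-6-phosphate dehydrogenase (G6pdx), the rate-limiting first enzyme. G6pdx was at 156, 151 and 137 CPM in astrocytes, 182, 171 and 179 CPM in mKate2- and 194, 155 and 179 CPM in mKate2+ libraries. The difference was small, with mKate2+ replicate 2 inside the astrocyte range, and log2 fold changes were 0.27 ± 0.10 SE (adjusted p = 0.0475) and 0.32 ± 0.12 SE (adjusted p = 0.0486). The call was lost in 9 and 11 of 15 alternative fits, without a change of direction, among them the fits without astrocyte replicate 3 (adjusted p = 0.084 and 0.143), and G6pdx shares 418 exonic bases with Ikbkg on the opposite strand.

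The lactonase Pgls, between G6pdx and Pgd, had means of 90.4 ± 21.5 CPM in astrocytes and 60.0 ± 4.37 and 65.9 ± 13.2 CPM (SD, n = 3) in mKate2- and mKate2+ cells, and was lower past the threshold in mKate2- cells only (adjusted p = 0.0243 and 0.190), while the test between the SB28 groups was not passed (adjusted p = 0.923). Its mKate2- call was lost without any 1 of the mKate2- libraries, up to an adjusted p of 0.0893, and Pgls shares 776 exonic bases with Fam129c. The remaining non-oxidative enzymes did not pass. Transketolase (Tkt) had means of 554 ± 119.6, 401 ± 34.6 and 398 ± 23.6 CPM (adjusted p = 0.0540 and 0.0867), and all SB28 libraries were below the astrocyte libraries. Without astrocyte replicate 3, Tkt was lower past the test in both groups (-0.58, adjusted p = 0.0111, and -0.54, adjusted p = 0.0305). Transaldolase (Taldo1) had 222 ± 54.5, 167 ± 5.40 and 186 ± 25.9 CPM, and in mKate2- cells it passed without astrocyte replicate 3 (-0.60, adjusted p = 0.00121). Ribulose-phosphate epimerase (Rpe) had 58.8 ± 8.67, 62.1 ± 1.92 and 58.2 ± 7.13 CPM, and shares 558 exonic bases with Kansl1l on the opposite strand.

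Of the genes listed as phosphoglucomutases, Pgm2 was higher in SB28 cells, at 43.9 ± 2.27 CPM in astrocytes and 74.9 ± 1.91 and 74.9 ± 5.06 CPM (SD, n = 3) in mKate2- and mKate2+ cells. This was 1.72-fold and 1.80-fold (adjusted p = 0.000275 and 0.000505). Pgm1, which links glucose-6-phosphate to glycogen, did not pass, at 163 ± 13.6, 166 ± 42.1 and 171 ± 36.1 CPM.

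Among the 5 glycogen enzymes, 1 was higher and 3 were lower in each SB28 group at an adjusted p under 0.05. Of the 3 lower, Pygl passed the filter on low values only through the astrocyte libraries and is not used as support, which leaves Pygb and Ugp2. Glycogen synthase 1 (Gys1), which extends the chain, was at 93.2, 90.0 and 85.1 CPM in astrocytes, 101, 154 and 117 CPM in mKate2- and 108, 119 and 109 CPM in mKate2+ libraries. All SB28 libraries were higher, by 0.49 ± 0.16 SE (adjusted p = 0.0309) and 0.40 ± 0.12 SE (adjusted p = 0.0203) on the log2 scale, and the calls were lost in 6 and 4 of 15 alternative fits, among them those without astrocyte replicate 3 (adjusted p = 0.0528 and 0.0623). Gys1 shares 310 exonic bases with Ruvbl2 on the opposite strand. Brain-type phosphorylase (Pygb) was at 264, 228 and 284 CPM, 147, 169 and 169.6 CPM and 166, 151 and 160.1 CPM. It was lower in every SB28 library, by 1.58-fold and 1.55-fold (adjusted p = 0.00216 and 0.00344), and kept this call under every alternative.

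UDP-glucose pyrophosphorylase (Ugp2), which makes the glucose donor for glycogen, was at 88.0, 97.7 and 109.8 CPM in astrocytes, 77.1, 77.1 and 77.8 CPM in mKate2- and 69.3, 62.1 and 73.8 CPM in mKate2+ libraries. It was lower in all SB28 libraries, by a modest amount (-0.33 ± 0.10 SE, adjusted p = 0.0212, and -0.45 ± 0.12 SE, adjusted p = 0.0131). The mKate2- call was lost without any 1 of the mKate2- libraries, up to an adjusted p of 0.079, and the mKate2+ call without mKate2+ replicate 1 (0.0524). Both calls were lost without a low-count filter (adjusted p = 0.1136 and 0.0523). The branching enzyme Gbe1 had means of 35.2 ± 5.05, 35.2 ± 4.86 and 35.0 ± 2.36 CPM and did not pass.

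Isozymes of a step were compared as shares of the CPM per kilobase of their family, as a description. Of phosphofructokinase, Pfkl made up 44.3% ± 3.77 (SD, n = 3) in astrocytes and 49.1% ± 1.94 and 50.5% ± 3.69 in mKate2- and mKate2+ cells, and Pfkm made up 44.7% ± 2.496, 40.9% ± 1.12 and 39.9% ± 3.04. The Pfkl share was slightly higher in every SB28 library than in any astrocyte library, but with the length of the principal transcript the groups overlapped (42.7 to 50.6% in astrocytes and 49.3 to 57.4% in SB28 libraries). Hk1 made up 69.2% ± 6.002 of Hk1 plus Hk2 in astrocytes and 63.7% ± 1.99 and 63.5% ± 1.15 in SB28 cells. With the length of the principal transcript instead, the shares of Hk1 were 82.1% ± 4.07, 78.2% ± 1.47 and 78.0% ± 0.855.

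The mix of Pfkfb enzymes differed between the cell types. Pfkfb3 held 58.2%, 59.4% and 74.5% of the family in the astrocyte libraries, 9.14%, 9.19% and 12.1% in mKate2- and 9.18%, 11.2% and 12.6% in mKate2+ libraries. Pfkfb4 held 17.2% ± 6.28 (SD, n = 3) in astrocytes and 44.3% ± 1.42 and 45.4% ± 3.29 in SB28 cells, and Pfkfb1, which is not among the 31 genes, 5.61% ± 2.17, 30.2% ± 0.731 and 31.1% ± 1.47. With principal transcript lengths Pfkfb1 was the most abundant in SB28 cells, at 40.3% ± 0.796 and 41.4% ± 1.65, ahead of Pfkfb4 at 35.7% ± 1.30 and 36.5% ± 2.91, so their order depends on the length used.

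**Figure D3:**
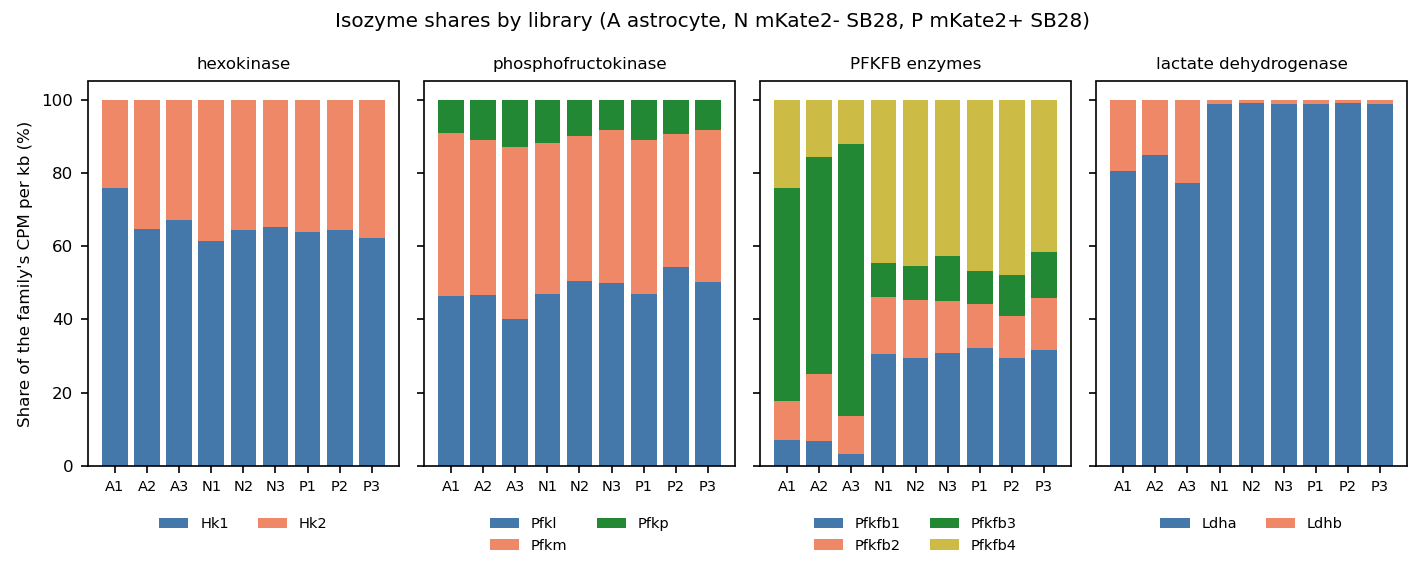
Share of each isozyme in the summed CPM per kilobase of exonic length of its family, in percent, for each of the 9 libraries (A, astrocytes; N, mKate2- SB28; P, mKate2+ SB28). Pfkl and Pfkm make up most of phosphofructokinase in all groups, Pfkfb3 falls from 58.2% or more in astrocytes to 12.6% or less in SB28 libraries, and Ldhb is almost gone from the SB28 bars.

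Other genes of the same pathways were taken from lists by function. Of 77 genes, 56 passed the filter on low values in each comparison with astrocytes. In mKate2- cells 12 were higher and 21 lower with an adjusted p under 0.05 and a log2 fold change above 1 in size (11.5% and 22.4% of all genes tested), and in mKate2+ cells 12 and 20 (12.2% and 22.8%), with medians of -0.14 and -0.20 over the tested genes, beside -0.04 and -0.02 over all genes. Of the 21 and 20 lower genes, 11 and 9 passed the filter only through the astrocyte libraries, as did 1529 of 2994 and 1562 of 3041 lower genes in the whole table.

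Lactate dehydrogenase B (Ldhb), the form that favors turning lactate into pyruvate, was at 216, 170.0 and 190.1 CPM in astrocytes, 10.3, 7.86 and 10.3 CPM in mKate2- and 9.07, 10.3 and 9.89 CPM in mKate2+ libraries. It was 20.1-fold and 18.7-fold lower (adjusted p = 4.48e-06 and 5.25e-06), a larger fold than that of any of the 31 genes except Pygl. Ldha, the form that favors lactate, was at 1894, 2033 and 1363 CPM, 1687, 2178 and 1933 CPM and 1664, 2439 and 1947 CPM and did not pass (adjusted p = 0.523 and 0.319). Ldha thus made up 81.0% ± 3.88 (SD, n = 3) of the pair per kilobase in astrocytes and 99.0% ± 0.262 and 99.0% ± 0.131 in SB28 cells.

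The remaining enzymes around lactate and glycerol phosphate moved in both directions. The D-lactate dehydrogenase Ldhd rose 2.502-fold and 2.57-fold and the mitochondrial glycerol-3-phosphate dehydrogenase Gpd2 2.05-fold and 2.13-fold in mKate2- and mKate2+ cells (adjusted p at most 0.00201). Cytosolic Gpd1, its partner in the glycerol phosphate shuttle, fell from 7.20, 2.94 and 18.5 CPM in astrocytes to at most 1.37 CPM in SB28 libraries (adjusted p = 0.00375 and 0.00132), a log2 fold change of -3.53 and -4.39, or -2.63 and -3.51 without astrocyte replicate 3. In both comparisons Gpd1 passed the filter on low values only through the astrocyte libraries, so its call is not used as support.

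Among 18 other glycolytic isozymes and side enzymes, 11 were tested, of which 2 were higher and 4 lower in mKate2- cells and 2 higher and 3 lower in mKate2+ cells by the same criteria. Pfkfb1 rose from 1.72, 2.29 and 1.76 CPM to 7.69, 6.77 and 7.37 CPM and 7.10, 5.12 and 6.99 CPM (adjusted p = 0.000278 and 0.000850). Tigar, which lowers fructose-2,6-bisphosphate, rose 2.03-fold and 2.22-fold (adjusted p = 0.00115 and 0.000939). Muscle-type mutase Pgam2 and Eno4 were lower, and neither exceeded 4.16 CPM in any library. Both passed the filter on low values only through the astrocyte libraries, so their calls are not used as support. Without them, 2 genes of this list were lower in mKate2- cells and 1 in mKate2+ cells. Aldoc, the brain aldolase, chosen here after its values were seen, was at 55.6, 33.8 and 362 CPM in astrocytes and at most 3.06 CPM in SB28 libraries. Its astrocyte level was highest in replicate 3, which also stood out for Aqp4 and Foxj1 but had the lowest Rarres2 and Tmem212. The log2 fold change of Aldoc was -5.94 and -6.14, and -4.21 and -4.43 without astrocyte replicate 3. The part of cells that express those markers was not tested.

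Of 10 other pentose phosphate genes, 7 were tested, 3 were higher and 2 lower in each SB28 group. Prps1, which makes the activated ribose used for nucleotides, rose 2.95-fold and 3.03-fold (adjusted p = 3.43e-05 and 5.43e-05). H6pd, the counterpart of G6pdx in the endoplasmic reticulum, rose 2.04-fold and 2.11-fold. Prps1l3 rose 2.49-fold and 2.37-fold (adjusted p = 0.00132 and 0.00271). The gluconate kinase Idnk fell by 3.37-fold and 2.94-fold.

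The list of 25 other glycogen genes had 21 tested, of which 2 were higher and 9 lower in each SB28 group, 6 and 5 of the 9 having passed the filter only through the astrocyte libraries. Ppp1r3c, Epm2a, Nhlrc1 and Phkg1 were among those in both comparisons, so their calls are not used as support. Ppp1r3c, the subunit that brings protein phosphatase 1 to glycogen, was at 13.4, 13.6 and 20.5 CPM in astrocytes and at most 0.503 CPM in SB28 libraries. Its summed counts were 53.6-fold lower in mKate2- cells (95% exact interval 36.9 to 81.0, counting error only) and 295-fold lower in mKate2+ cells (135 to 805). Epm2a and Nhlrc1, the laforin and malin genes that limit abnormal glycogen, were at 4.09, 7.67 and 7.26 CPM and 6.26, 5.14 and 4.78 CPM in astrocytes and did not exceed 1.15 CPM and 0.28 CPM in SB28 cells. Phkg1, a catalytic subunit of phosphorylase kinase, fell from 3.80, 3.76 and 3.50 CPM to at most 0.458 CPM. The 2 higher genes, the phosphatase subunits Ppp1r3d and Ppp1r3e, were named after their values were seen. They rose 2.38-fold and 3.59-fold in mKate2- cells and 2.05-fold and 3.23-fold in mKate2+ cells.

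**Figure D4:**
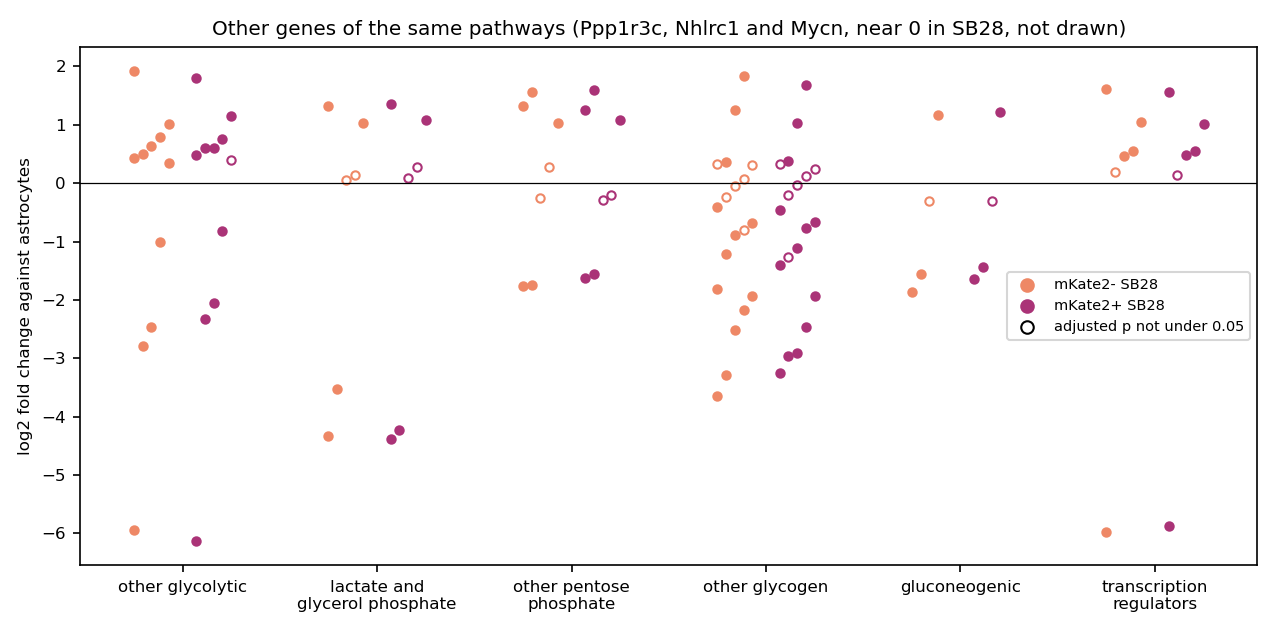
Log2 fold change against astrocytes of the tested genes of 6 other pathway lists in mKate2- and mKate2+ SB28 cells; open points have an adjusted p not under 0.05, and Ppp1r3c, Nhlrc1 and Mycn, near 0 in SB28 cells, are not drawn. Most called glycogen genes lie below 0, while the other lists have called genes on both sides.

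The comparison of mKate2+ with mKate2- SB28 cells asks how acquiring astrocyte mitochondria relates to these enzymes. No gene in the table passed an adjusted p under 0.05 (0 of 11854, with 241 at an unadjusted p under 0.05, and 0 with DESeq2, with 317), so percent called was 0 and none of the 30 tested enzymes was called. Pygl did not pass the filter. The study's looser criteria for genes higher in mKate2+ cells were applied as a fold above 1.5, an unadjusted p under 0.05 and, as read here, a mean normalized count above 50. By them 0.194% of all genes were higher and 0 of the 30 enzymes. The same cut in the other direction, which the study did not use, gave 0.169% of all genes and 0 enzymes, for 0.363% in all. The 30 log2 fold changes lay between -0.48 and 0.22, with 21 above 0 and a median of 0.05, beside 0.00 over all genes.

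Pfkfb2 had the smallest unadjusted p, 0.0270, with a log2 fold change of -0.48 ± 0.18 SE and an adjusted p of 0.923. Its level was 7.14, 6.60 and 6.20 CPM in mKate2- and 4.69, 3.61 and 5.62 CPM in mKate2+ libraries. The mKate2+ libraries were all lower, and the gap between the groups was smaller than the spread among the mKate2+ libraries. Pgd (0.21 ± 0.13 SE) and Ugp2 (-0.13 ± 0.08 SE) came next, with unadjusted p of 0.128 and 0.128 and an adjusted p of 0.923 for both. For Pgd the groups overlapped, and for Ugp2 they did not.

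Several enzymes of glycolysis had small positive values that depended on which libraries were kept. The log2 fold change was 0.21 ± 0.22 SE for Tpi1, 0.20 ± 0.17 SE for Gapdh, 0.20 ± 0.18 SE for Aldoa and 0.15 ± 0.19 SE for Pgk1. Without mKate2+ replicate 2 these were -0.09, 0.00, -0.04 and -0.09, and the number of positive values fell from 21 to 8 of 30. With replicate 2 left out of both SB28 groups, they were 0.05, 0.12, 0.06 and 0.05, and 23 of 30 values were positive. Scaled to total counts without TMM, 15 of the 30 values were positive. Tpi1 shows the pattern, at 1015, 1377 and 1124 CPM in mKate2- and 1053, 1691 and 1141 CPM in mKate2+ libraries.

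Replicate 2 was high in both SB28 groups. Of the 14 glycolytic enzymes, 13 were highest in replicate 2 of the mKate2- libraries (92.9%, against 32.4% of all genes tested) and 9 in replicate 2 of the mKate2+ libraries (64.3%, against 29.1%). In 9 both were true (64.3%, against 11.3% of all genes): Gpi1, Pfkl, Aldoa, Tpi1, Gapdh, Pgk1, Pgam1, Eno1 and Pkm. In the median glycolytic enzyme, mKate2- replicate 2 was 0.27 and mKate2+ replicate 2 0.24 above the mean of the other 2 libraries of its group on the log2 CPM scale, and over all genes the medians were -0.02 and -0.13. Of the 7 pentose phosphate enzymes, 1 and 3 were highest in replicate 2, and none in both. Between libraries of the same number, 7 of the 14 glycolytic enzymes had a higher CPM in mKate2+ than in mKate2- cells at all 3 numbers (50%, against 8.01% of all genes tested, or 14.5% after TMM scaling): Gpi1, Aldoa, Tpi1, Gapdh, Pgk1, Pgam1 and Eno1. The replicate numbers are not stated to mark a shared co-culture, and none of these differences passed the test.

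**Figure D5:**
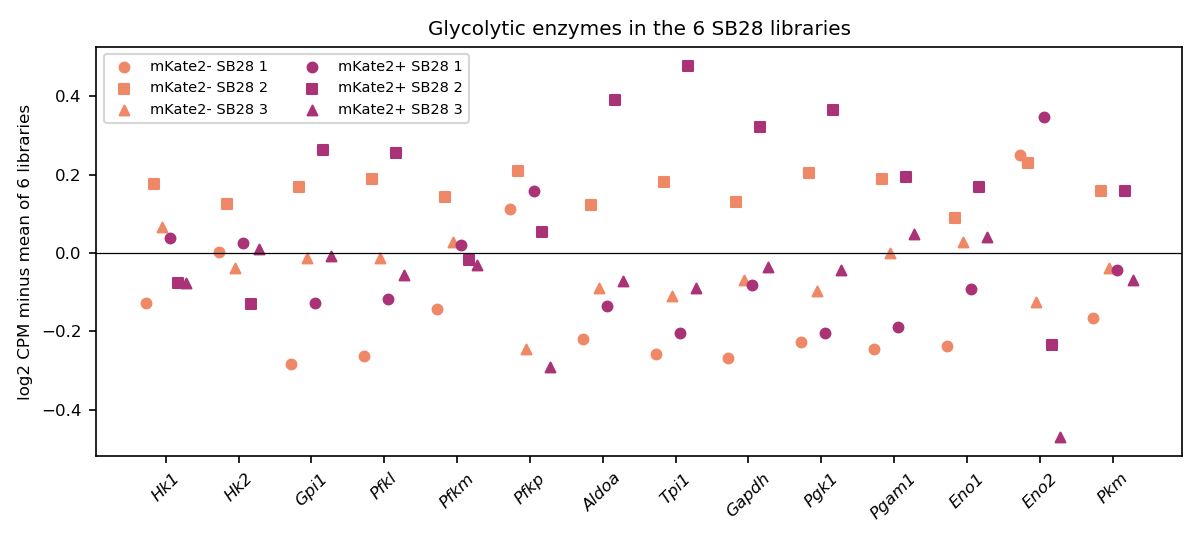
Log2 CPM of the 14 glycolytic enzymes in each of the 6 SB28 libraries, relative to the mean of the 6; color gives the group and symbol the replicate. The squares (replicate 2) of both groups sit above 0 from Gpi1 to Pkm, apart from Pfkm and Eno2 in mKate2+ cells, while circles and triangles of the 2 groups intermix.

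Per kilobase of exonic length, the order of levels was led by Pkm and Gapdh in all groups. Pkm was at 724, 857 and 874 CPM per kilobase on average in astrocytes, mKate2- and mKate2+ cells, Gapdh at 624, 789 and 869, Pgk1 at 449, 665 and 707 and Aldoa at 618, 567 and 624. Phosphofructokinase and hexokinase genes were far lower, with Pfkl at 71.2, 45.7 and 47.5, Hk1 at 33.9, 29.1 and 27.5 and Hk2 at 14.9, 16.6 and 15.9. In the pentose phosphate pathway, Taldo1 was the most abundant enzyme (102, 76.8 and 85.8) and Rpia the least (1.95, 3.96 and 4.28).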

How the data were processed

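RNA-seq was available for 9 libraries, 3 each of astrocytes, mKate2- and mKate2+ SB28 cells. The deposited values were raw counts per gene; per the submitters' processing notes, the authors trimmed reads with Trimmomatic 0.36, mapped them to GRCm38 with STAR 2.5.2b and counted them with featureCounts (Subread 1.5.2). The annotation release and strand setting were not given in the sources used here. Counts were fitted over the whole table with edgeR 4.0.16 (R 4.3.3): the 6 libraries of each pair of groups, TMM normalization, genes above 1 CPM in at least 2 libraries, quasi-likelihood test and Benjamini-Hochberg adjustment. SE is the log2 fold change divided by the square root of F. CPM values are not TMM-scaled. Names and lengths came from GENCODE M21, promoters from RefSeq, and near-identical transcripts (98% over 300 bases) from blastn. Pairs of libraries differed beyond sampling noise. The fits were also run on simulated counts with the same dispersion for every gene and no outlying library. That run does not cover spread of the kind seen in these libraries. Alternatives were DESeq2 1.42.0, other normalizations and filters, all 9 libraries, a replicate block, a length trend and leaving out each library. All 31 genes are accounted for, with every library's value for enzymes past both thresholds, rate-governing enzymes, Gapdh and the 3 smallest p between SB28 groups; other lists give up to 4 called genes, smallest adjusted p first, plus Ldha and Ldhb. The members and lists were chosen with earlier results of these data known. One marker gene is not reported here.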

Additional observations from a re-analysis of the deposited data

How the results depend on the processing

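Of the calls on adjusted p (edgeR), 12 of 18 in mKate2- and 12 of 16 in mKate2+ cells against astrocytes were kept under every alternative that tested the gene; the filter of at least 10 counts in every library removed Pygl. With the fold threshold, the 1 gene higher in mKate2- cells became 0 with upper-quartile normalization and with that filter, and 0 to 2 with 1 library left out; the 2 higher in mKate2+ cells became 1 with upper-quartile normalization, 3 without a low-count filter (Pgam1 added), and 1 to 3 with 1 library left out. The 3 lower in mKate2+ cells became 3 to 4 with 1 library left out, the added gene being Pfkfb2 without astrocyte replicate 1. On adjusted p alone, genes higher numbered 5 to 8 and 5 to 9 with 1 library left out, against 8 and 8, and genes lower 7 to 12 and 7 to 10, against 10 and 8, and 9 to 11 and 7 to 11 under other alternatives. Genes not called that passed in some of 15 alternatives were Pfkfb2 (1), Tkt (7) and Taldo1 (2) in mKate2- and Pfkl (6), Gapdh (3), Pfkfb2 (6) and Tkt (5) in mKate2+ cells. Of 26 called genes named from the other lists, 25 and 26 kept an adjusted p under 0.05 in every alternative that tested them, Pgam2 in mKate2- cells being the exception. The fold threshold was lost more often: for Tigar in 5, Gpd2 and H6pd in 4 each and Hif1a in 3 alternatives in mKate2- cells, and for Hif1a in 8, Ppp1r3d in 5 and Gpd2 and H6pd in 2 each in mKate2+ cells. Between the SB28 groups, 0 enzymes were lower by the study's cut turned to the other direction, and 0 to 1 with 1 library left out, the 1 being Pfkfb2 without mKate2+ replicate 3. Over all genes, the 23 higher and 20 lower by those criteria ranged from 6 to 310 and from 16 to 70 with 1 library left out, and from 5 to 224 and from 12 to 35 under other alternatives.

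Values near 0 changed sign, and the cause was not tested. In mKate2- cells against astrocytes these were Eno1 without a filter (0.0295), Pgm1 (-0.0379) and Gbe1 (-0.0651) with upper-quartile normalization, Pgm1 (-0.0340) and Gbe1 (-0.0620) with at least 10 counts, and Gbe1 (-0.00299) with total counts alone. In mKate2+ cells they were Aldoa (-0.00549), Rpe (-0.0395) and Gbe1 (-0.0258) with upper-quartile normalization, Rpe (-0.0258) and Gbe1 (-0.0113) with at least 10 counts, and Rpe (-0.0183) and Gbe1 (-0.00855) with total counts alone. With 1 library left out, mKate2- values ranged from -0.25 to 0.0262 for Aldoa, -0.15 to 0.13 for Eno1, -0.0171 to 0.15 for Rpe, -0.18 to 0.18 for Pgm1 -0.10 to 0.11 for Gbe1 and -0.01775 to 0.2379 for Ldha. The mKate2+ values ranged from -0.13 to 0.22 for Aldoa, -0.0257 to 0.26 for Eno1, -0.0593 to 0.12 for Rpe, -0.0703 to 0.26 for Pgm1 and -0.0104 to 0.17 for Gbe1. Between SB28 groups they ranged from -0.0438 to 0.32 for Aldoa, -0.0922 to 0.36 for Tpi1 and -0.0894 to 0.29 for Pgk1. Upper-quartile normalization moved the median of all genes to -0.12 in both comparisons with astrocytes, from -0.04 and -0.02.

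Libraries of different groups with the same number correlated at -0.147 to 0.251 in their deviations from group means, and those with different numbers at -0.275 to 0.252. The labels do not say whether a number marks a shared co-culture, so pairing by number was not established. With the replicate number as a block, 1 enzyme was higher and 3 lower with the fold threshold in mKate2- cells and 2 and 3 in mKate2+ cells, 7 and 10, and 6 and 8, on adjusted p alone, and 0 between SB28 groups, where 20 of 30 log2 fold changes were positive. With 3 libraries a group, and Pygl at 0 to 5 counts in SB28 libraries, small differences were not resolved. The alternatives scaling to total counts only, using principal transcript lengths and leaving replicate 2 out of both SB28 groups were chosen after seeing the data.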

Other observations

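Of 9 gluconeogenic genes, 4 were tested against astrocytes, and in each SB28 group 1 was higher and 2 were lower with an adjusted p under 0.05 (edgeR) and a log2 fold change above 1 in size, where 11.5% and 12.2% of all genes tested were higher and 22.4% and 22.8% lower in mKate2- and mKate2+ cells. Pcx, pyruvate carboxylase, was at 77.6, 85.3 and 109 CPM in astrocytes, 32.9, 29.2 and 29.0 CPM in mKate2- and 42.5, 27.1 and 26.5 CPM in mKate2+ SB28 libraries, and its log2 fold change was -1.56 ± 0.14 SE and -1.43 ± 0.21 SE. G6pc3, a broadly expressed glucose-6-phosphatase, had -1.86 ± 0.19 SE and -1.65 ± 0.21 SE. Pck2, the mitochondrial phosphoenolpyruvate carboxykinase, rose 2.25-fold and 2.33-fold (adjusted p = 0.000555 and 0.00135).

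Of 8 transcription regulators of glycolytic genes, 7 were tested, and 2 were higher and 2 lower in each SB28 group by the same rule, with the same shares of all genes as background. Both lower genes in mKate2- cells, Epas1 and Mycn, and Mycn in mKate2+ cells passed the filter on low values only through the astrocyte libraries. These calls are not used as support. Hif1a was at 119, 163 and 195 CPM in astrocytes, 312, 340.0 and 317 CPM in mKate2- and 326, 267 and 320.0 CPM in mKate2+ libraries, and rose 2.06-fold and 2.02-fold (adjusted p = 0.00100 and 0.00217). Its log2 fold change was not above 1 in 3 of 15 alternatives in mKate2- cells and 8 of 15 in mKate2+ cells. Epas1, which encodes HIF-2 alpha, was at 36.7, 61.8 and 69.9 CPM in astrocytes. It was at 0.920, 1.00 and 0.704 CPM in mKate2- and 1.05, 0.611 and 1.05 CPM in mKate2+ libraries (adjusted p = 1.41e-05 in mKate2+ cells). Myc was at 33.4, 54.0 and 38.9 CPM, 125, 132 and 127 CPM and 123, 109.8 and 123 CPM, and Mycn at 19.2, 10.1 and 10.8 CPM in astrocytes and close to 0 in SB28 cells, where its summed counts were 118.9-fold lower in mKate2- (95% exact interval 64.4 to 249, counting error only) and 700.7-fold lower in mKate2+ cells (194 to 5792). Protein levels and activity of these regulators were not measured.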
